A study of Caenorhabditis elegans with 8 samples.

Results

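The fatty acid desaturase genes fat-1 to fat-7 of Caenorhabditis elegans encode the enzymes that place double bonds in fatty acids. They were taken by gene name from the deposited table and are 7 of its 46904 genes. All 7 passed the filter on low counts, which left 10932 genes. RNA came from 8 pools of whole worms of the strain CL2006, listed with the genotype WT and described by the series as expressing amyloid beta. In this strain the promoter of the muscle myosin gene unc-54 drives the human peptide in body wall muscle, and both groups carry the transgene. Worms were grown at 20 °C on bacteria with an empty RNAi vector (4 libraries) or with a cpr-6 RNAi construct (4 libraries), were bleached at day 1 of adulthood, and a further generation on the same bacteria was harvested at day 6 with progeny removed every day. cpr-6 encodes a cathepsin B-like cysteine protease. There was no group without amyloid beta among these libraries.

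Worms make omega-6 and omega-3 polyunsaturated fatty acids from saturated ones, which mammals cannot do. FAT-5, FAT-6 and FAT-7 are Δ9 desaturases that put the first double bond into saturated chains, FAT-5 mainly into palmitate and FAT-6 and FAT-7 mainly into stearate, which yields oleate. FAT-2 (Δ12) turns oleate into linoleate, FAT-3 (Δ6) and FAT-4 (Δ5) add further bonds on the way to arachidonic and eicosapentaenoic acid, and FAT-1 turns omega-6 into omega-3 chains. The intestine and the epidermis are known sites of lipid synthesis in the worm, and the products go into membranes, fat stores and yolk.

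Libraries were made with CEL-Seq2, which reads the 3′ ends of polyadenylated transcripts, and held 8184412 to 12506320 counts. The fat genes together took 0.115% to 0.172% of the counts of a library. cpr-6 stood at 731 to 780 CPM (counts scaled to a common library total, comparable between libraries) in empty vector libraries and at 65.6 to 101 CPM in cpr-6 RNAi libraries, and its edgeR log2 fold change was -3.22 (SE 0.114). Markers of intestine (9 of 10 listed), hypodermis (9 of 10), body wall muscle (10 of 10), germline and oocytes (10 of 10), sperm (10 of 10) and neurons (10 of 10) were all detected in the pools. The cpr-6 RNAi library of replicate 4 stood apart. Its first principal component score was 41.5, against -18.4 to 4.34 in the other libraries, and genes of the mitochondrial genome took 2.14% of its counts, against 0.805% to 1.16%. In whole-worm pools, fewer cells of a type and less RNA per cell cannot be told apart. The series text speaks of biological repeats without saying whether each was a culture of its own, so every p-value here rests on library-to-library spread, which may be technical.

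The Δ9 step was carried at the RNA level mainly by fat-5 and fat-6, with fat-7 scarce in every library, and none of these 3 genes passed the test under cpr-6 RNAi. fat-5 (WBGene00001397; WBcel235 chromosome V, 17725004 to 17726818, plus strand), the palmitate desaturase gene, stood at 84.8, 89.2, 74.1 and 75.0 CPM in empty vector replicates 1 to 4 and at 77.2, 87.0, 88.8 and 113 CPM in cpr-6 RNAi replicates 1 to 4. The groups overlapped, and cpr-6 RNAi replicate 4 was the highest library. The group means were 80.8 ± 7.40 and 91.4 ± 14.996 CPM (SD, n = 4). In edgeR (quasi-likelihood) the log2 difference was 0.18 (SE 0.115; adjusted p = 0.997). Its 3′ UTR overlaps twk-42, a potassium channel gene on the other strand, which held 188 counts over the 8 libraries against at least 796 per library for fat-5, and the use of strand in counting is not given in the sources used here.

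fat-6 (WBGene00001398; chromosome IV, 11913691 to 11915796, minus strand), a stearate desaturase gene, stood at 76.4, 81.6, 67.8 and 77.7 CPM in empty vector and at 62.0, 80.8, 84.6 and 102 CPM in cpr-6 RNAi libraries. Here the lowest and the highest library were both cpr-6 RNAi libraries, replicates 1 and 4, with the empty vector libraries between them. edgeR gave a log2 difference of 0.12 (SE 0.127; adjusted p = 0.997). fat-7 (WBGene00001399; chromosome V, 7151353 to 7153146, minus strand), the other stearate desaturase gene, stood at 5.75, 6.88, 11.1 and 8.22 CPM in empty vector and at 6.16, 6.01, 9.09 and 11.6 CPM in cpr-6 RNAi libraries. The groups covered nearly the same range, on raw counts of only 54 to 130 per library. Its log2 difference was 0.02 (SE 0.243; edgeR adjusted p = 0.997), the least precise of the family. fat-6 and fat-7 are close paralogs, and how reads that match both were assigned is not given in the sources used here, so the split between them is uncertain.

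Within the summed raw counts of the Δ9 genes, fat-5 took 49.01% ± 1.90 in empty vector and 50.4% ± 1.91 in cpr-6 RNAi libraries (SD, n = 4), fat-6 took 46.1% ± 1.66 and 45.2% ± 1.78, and fat-7 took 4.93% ± 1.72 and 4.45% ± 0.770. The makeup of this step therefore differed between groups by less than the SD within them. The share of fat-7 was 3.45% (95% Wilson interval 2.65% to 4.47%, counting error only) in empty vector replicate 1 and 7.28% (6.16% to 8.58%) in empty vector replicate 3, which is the whole range over the 8 libraries. fat-7 thus varied between libraries of 1 group by more than its group means differed.

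fat-2 (WBGene00001394; chromosome IV, 13323850 to 13326394, plus strand), the Δ12 desaturase gene that opens the polyunsaturated branch, stood at 178, 184, 159 and 163 CPM in empty vector and at 153, 167, 190 and 227 CPM in cpr-6 RNAi libraries. As for fat-6, both extremes were cpr-6 RNAi libraries and the empty vector libraries lay inside them. The means were 171 ± 12.1 and 184 ± 32.0 CPM (SD, n = 4), and the log2 difference was 0.11 (SE 0.111; edgeR adjusted p = 0.997).

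The front-end desaturase genes fat-3 and fat-4 lie head to tail on chromosome IV and did not pass the test either. fat-4 (WBGene00001396; 9799429 to 9802638, plus strand), the Δ5 gene, stood at 588, 598, 587 and 537 CPM in empty vector and at 498, 532, 587 and 708 CPM in cpr-6 RNAi libraries. The group means were nearly equal, 578 ± 27.3 and 581 ± 92.2 CPM (SD, n = 4), and differed by 0.01 on the log2 scale (SE 0.0983; edgeR adjusted p = 0.997). The spread was wider under cpr-6 RNAi, where replicates 1 and 4 were again the lowest and the highest of the 8 libraries. fat-3 (WBGene00001395; 9803023 to 9806119, plus strand), the Δ6 gene, stood at 197, 187, 201 and 236 CPM in empty vector and at 150, 186, 196 and 237 CPM in cpr-6 RNAi libraries. It was the 1 fat gene with a log2 fold change below 0, at -0.10 (SE 0.123; edgeR adjusted p = 0.997). Its groups overlapped, with all empty vector libraries inside the wider range of the cpr-6 RNAi libraries. The deposited table ends fat-4 at 9802638, whereas Ensembl release 115 of the same build ends it at 9802226, so these gene models differ in the stretch that precedes fat-3.

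fat-1 (WBGene00001393; chromosome IV, 13315644 to 13318811, plus strand), the omega-3 desaturase gene, stood at 286, 272, 280 and 274 CPM in empty vector and at 238, 281, 313 and 307 CPM in cpr-6 RNAi libraries. The empty vector libraries lay closely together, with an SD of 6.52 CPM, against 34.3 CPM under cpr-6 RNAi. Between the groups it differed by 0.03 on the log2 scale (SE 0.0905; edgeR adjusted p = 0.997). Its nearest desaturase gene is fat-2, 5061 bases away on the same strand in the Ensembl annotation.

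**Figure D1:**
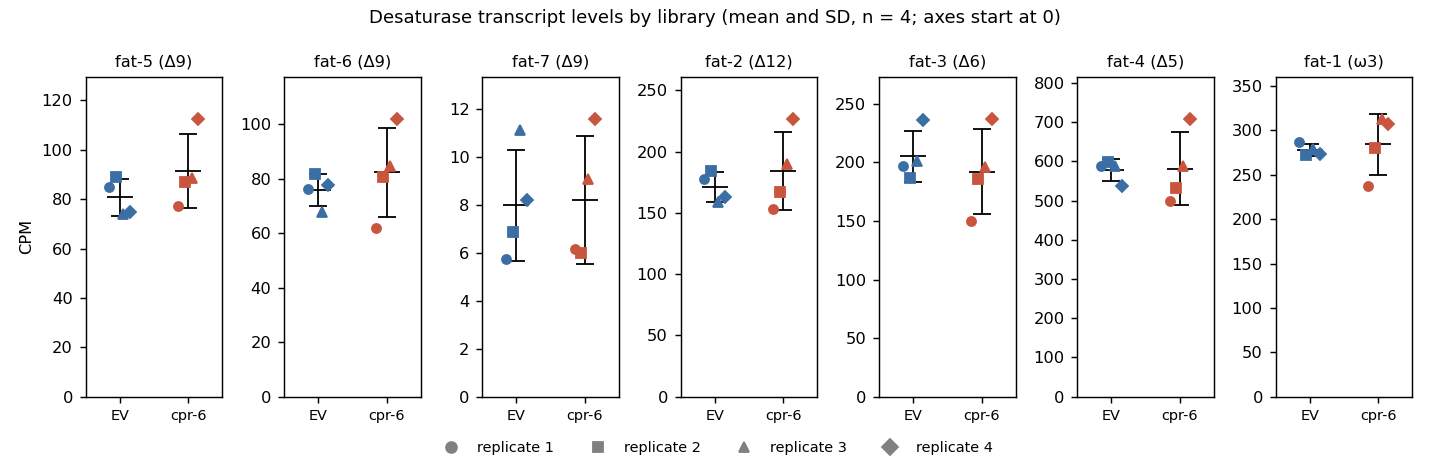
CPM of each desaturase gene in every library, with a panel per gene in the order of the synthesis steps; points are libraries (blue, empty vector, EV; red, cpr-6 RNAi), shapes give the replicate number, and bars give the mean and SD of 4 libraries. The groups overlap in all 7 panels, and cpr-6 RNAi replicate 4 is the highest library in 6 of them.

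So 0 of the 7 fat genes passed edgeR's test, where 0.00915% of the 10932 genes (1 gene, cpr-6) did. Without adjustment 0 of the 7 had a p under 0.05, against 3.85% of all genes, with the smallest p, 0.142, for fat-5, and limma voom called 1 gene in all. The libraries of the groups overlapped for all 7, and were apart for 2.52% of all genes. A log2 fold change above 0 was found for 6 of the 7 and for 50.2% of all genes, and the median was 0.03 for the fat genes and 0.00058 for all genes. A p that misses the threshold does not show equal levels, so the intervals bound what was measured. The edgeR 95% intervals of the fold change ran from 0.896 to 1.17 for fat-1, from 0.915 to 1.27 for fat-2, from 0.780 to 1.12 for fat-3 and from 0.870 to 1.16 for fat-4. They ran from 0.955 to 1.34 for fat-5, from 0.899 to 1.31 for fat-6 and from 0.708 to 1.46 for fat-7. All 7 intervals lay within 2-fold in either direction, as did the intervals of 87.7% of all genes. All 7 also lay within 1.5-fold, a limit for which the share over all genes was not computed. The authors' deposited table gives log2 fold changes of -0.12 (fat-3) to 0.16 (fat-5) for the 7 genes, each with an adjusted p of 0.9998.

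Levels of different genes were compared per kilobase of the longest annotated transcript. CEL-Seq2 counts transcript ends, so plain CPM need not grow with length, and the order on that scale is given beside it. Over the 8 libraries fat-4 was the most abundant, at 376 ± 40.9 CPM per kilobase (SD, n = 8), 1.89 times fat-1 at 199 ± 16.3. On the scale of CPM per kilobase fat-2 followed at 142 ± 18.7 and fat-3 at 133 ± 19.01, then fat-5 at 78.0 ± 11.2, fat-6 at 67.9 ± 10.2 and fat-7 at 7.20 ± 2.06. On this scale, the library ranges of neighbours in the order were apart only between fat-4 and fat-1 and between fat-6 and fat-7, where fat-6 stood 9.42 times higher. The neighbours fat-2 and fat-3 overlapped and kept this order in 6 of 8 libraries. On plain CPM fat-3 stood above fat-2 instead, in 7 of 8 libraries, and the other ranks were the same. There fat-4 stood 2.06 times above fat-1 and fat-6 9.76 times above fat-7, again with ranges apart. The ranges on plain CPM were also apart between fat-2 and fat-5, and barely between fat-1 (lowest 237.6 CPM) and fat-3 (highest 237.1 CPM). The genes of the late, polyunsaturated steps thus stood above those of the Δ9 step by their means in both groups, on either scale.

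For all 7 genes the group means differed by less than the SD of the cpr-6 RNAi libraries. For fat-2, fat-5 and fat-6 they differed by more than the SD of the empty vector libraries, which was 12.1, 7.40 and 5.82 CPM. The library of cpr-6 RNAi replicate 4 was the highest of the 8 for 6 of the 7 genes (the exception, fat-1, was highest in cpr-6 RNAi replicate 3), and it was the highest for 29.9% of all genes. The library of cpr-6 RNAi replicate 1 was the lowest for 5 of the 7, namely fat-1, fat-2, fat-3, fat-4 and fat-6, and for 10.3% of all genes. Over the 8 libraries the highest level was 1.32 times the lowest for fat-1, 1.65 times for fat-6 and 2.02 times for fat-7. The spread within groups, on the log2 scale, was 0.13 for fat-1, 0.22 for fat-6 and 0.42 for fat-7, where counting alone would give about 0.027, 0.051 and 0.16. Among the 500 tested genes nearest in level to each, the median spread was 0.13, 0.14 and 0.25. The spread of fat-1 exceeded that of 49.8% of its 500 genes, that of fat-6 87.2% and that of fat-7 90.6%. For fat-2, fat-3, fat-4 and fat-5 these shares were 80.6%, 90.0%, 77.2% and 77.6%.

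In cpr-6 RNAi replicate 4 the summed hypodermis markers stood at 1136 CPM, against 641 to 913 CPM in the other 7 libraries, and the summed germline and oocyte markers at 4601 CPM, against 6190 to 7310 CPM. The summed intestine markers stood at 1867 CPM, against 1440 to 1810 CPM, body wall muscle markers at 6828 CPM, against 3770 to 6145 CPM, neuron markers at 1318 CPM, against 1125 to 1296 CPM, and sperm markers at 27.7 CPM, against 7.03 to 20.1 CPM. The part of these differences in the fat gene levels was not tested. Without this library, the log2 fold changes were -0.22 for fat-3, -0.10 for fat-4, -0.18 for fat-7 and 0.06 for fat-5. Those of fat-1, fat-2 and fat-6 lay close to 0, at -0.0075, -0.0079 and -0.0033. None of the 7 passed edgeR's test in that fit, with adjusted p of at least 0.941. The median over all genes there was -0.0011, and the share of all genes below 0 was not computed.

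**Figure D2:**
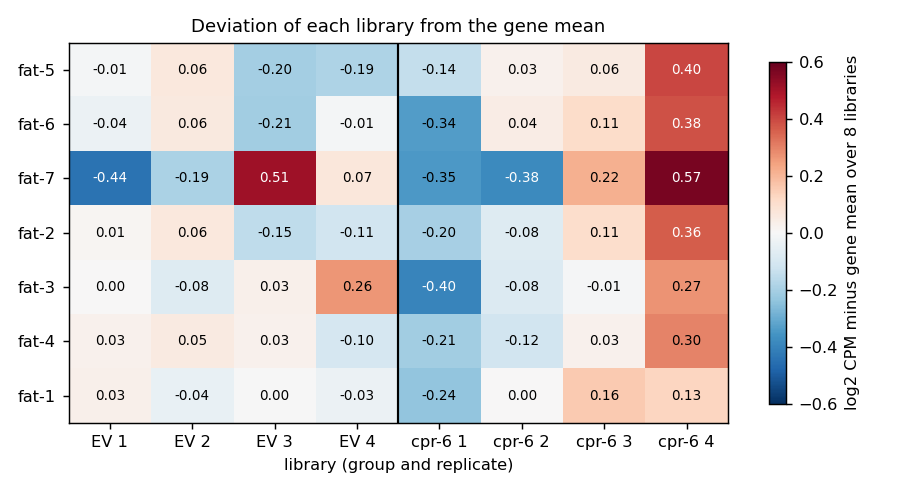
Log2 CPM of each desaturase gene in each library minus the mean of that gene over the 8 libraries; rows are genes in the order of the synthesis steps, columns are libraries, and a black line parts empty vector (EV) from cpr-6 RNAi. The column of cpr-6 RNAi replicate 4 is above 0 for all 7 genes, from 0.13 for fat-1 to 0.57 for fat-7, and that of cpr-6 RNAi replicate 1 is below 0 for all 7.

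The fold changes also turned on which replicate numbers were compared. The deposited fold changes come within 0.001 of a DESeq2 model with a term that separates replicates 1 and 2 from replicates 3 and 4 for 13217 of 13217 genes, and within 0.001 of a model with treatment alone for 2506. No label states this division; the deposited header has a set of normalized columns named noBatch, without saying what the batch is. Within replicates 1 and 2, all 7 fat genes were lower under cpr-6 RNAi, with differences of mean log2 CPM from -0.05 (fat-7) to -0.20 (fat-4 and fat-3), and 49.2% of all genes were lower. Within replicates 3 and 4, 6 of the 7 were higher, at 0.42 for fat-5, 0.37 for fat-2, 0.36 for fat-6, 0.20 for fat-4, 0.16 for fat-1 and 0.11 for fat-7, with fat-3 at -0.02, and 51% of all genes were higher. Thus 6 of the 7 genes changed sign from lower to higher between the pairs of replicates, as did 24.8% of all genes.

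The test of that difference called 0 of 10932 genes in edgeR after adjustment (0%), with adjusted p of 0.997 for each of the 7. At an unadjusted p under 0.05 it held for 4 of the 7, fat-2 (0.55 ± 0.179 on the log2 scale), fat-5 (0.51 ± 0.204), fat-6 (0.50 ± 0.222) and fat-4 (0.41 ± 0.164, SE), and for 3.82% of all genes. These genes varied together over the same libraries, so the count is not one of independent genes. It was 1 of 7 with empty vector replicate 2 left out, or with either replicate 1 or replicate 4 of cpr-6 RNAi left out, 2 of 7 without empty vector replicate 1, 3 or 4, and 4 of 7 without cpr-6 RNAi replicate 2 or 3. The share of all genes at that p was 19.5% when replicate 3 of cpr-6 RNAi was dropped, stood at 6.78% when its replicate 4 was, and lay at 1.96% to 3.65% in the other leave-outs. Without cpr-6 RNAi replicate 3, the edgeR test called 462 of 11031 genes after adjustment (4.19%) and 3 of the 7 fat genes, which were fat-2 (0.67, adjusted p = 0.00875), fat-5 (0.68, adjusted p = 0.0215) and fat-4 (0.53, adjusted p = 0.0232). That fit leaves cpr-6 RNAi replicate 4, the library that stands apart, as the only cpr-6 RNAi library of replicates 3 and 4, assumed to vary like the other groups. No fat gene passed after adjustment in the other 7 leave-outs.

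**Figure D3:**
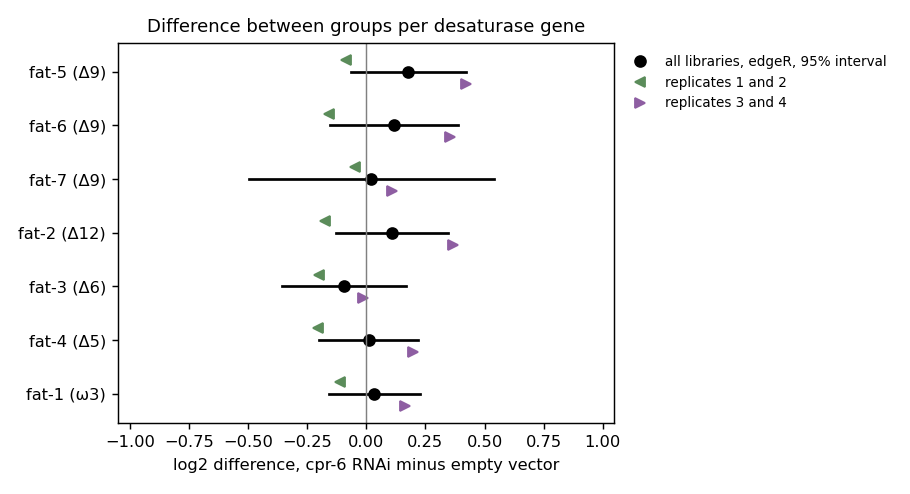
Difference between cpr-6 RNAi and empty vector for each desaturase gene on the log2 scale; black points and bars are the edgeR log2 fold change over all 8 libraries with its 95% interval, and triangles are differences of mean log2 CPM within replicates 1 and 2 (green) and within replicates 3 and 4 (purple). All 7 intervals contain 0, and all 7 green triangles lie left of 0 while 6 purple ones lie right of it.

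fat-7 followed the replicate numbers in both groups more than the treatment. The libraries of replicates 1 and 2 held 5.75 to 6.88 CPM and those of replicates 3 and 4 held 8.22 to 11.6 CPM, with no overlap. Such a separation was found for 1 of the 7 fat genes and for 3.21% of all genes. In an edgeR fit with treatment and this division, replicates 3 and 4 stood higher by 0.68 ± 0.169 (SE) on the log2 scale for fat-7, with an unadjusted p of 0.00106 and an adjusted p of 0.195, so the difference did not pass. The same contrast was 0.28 ± 0.0990 (SE) for fat-3 (edgeR adjusted p 0.382), and lay between 0.04 and 0.13 for the other fat genes.

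The fat genes varied together across the 8 libraries to different degrees. Of their 21 pairs, 4 had a correlation of log2 CPM with an exact permutation p under 0.05 after Benjamini-Hochberg adjustment over the pairs, and all 21 Pearson coefficients were above 0. fat-2 and fat-5 were most alike, with Pearson r = 0.95 (exact permutation p = 0.00139, adjusted 0.0146) and Spearman rho = 0.88 (exact permutation p = 0.00724, adjusted 0.075). fat-2 and fat-6 followed with r = 0.92 (exact permutation p = 0.000521, adjusted 0.0109) and rho = 0.93 (exact permutation p = 0.00223, adjusted 0.0469). Among 6431 genes with a mean of 10 CPM or more, fat-5 was the closest of all to fat-2, and fat-2 was the 2nd closest to fat-5 and the 3rd closest to fat-6. The other ranks of the 4 pairs were lower. For fat-2, fat-6 ranked 11th and fat-4 20th, and for fat-4, fat-2 ranked 25th. fat-6 ranked 30th for fat-5, and fat-5 ranked 18th for fat-6. The share of all gene pairs with correlations as high was not computed, so the count of 4 pairs has no background beside it.

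fat-2 and fat-4 had r = 0.90 (exact permutation p = 0.00526, adjusted 0.0283; rho = 0.71, p = 0.0576, adjusted 0.242), and fat-5 and fat-6 had r = 0.88 (exact permutation p = 0.00538, adjusted 0.0283; rho = 0.86, p = 0.0107, adjusted 0.075). So the genes for the Δ9 and Δ12 steps, save fat-7, went up and down together over these libraries. This was not particular to those steps, since the Δ5 gene fat-4 followed fat-2 as closely as fat-6 followed fat-5. With fat-5 and with fat-6, fat-4 had r = 0.79 each, and neither of these pairs passed after adjustment. Leaving out the 2 libraries farthest from the median of the first gene (cpr-6 RNAi replicates 1 and 4 for fat-2, and cpr-6 RNAi replicate 4 with empty vector replicate 3 for fat-5) gave r = 0.85 for fat-2 with fat-5, 0.76 for fat-2 with fat-6, 0.54 for fat-2 with fat-4 and 0.66 for fat-5 with fat-6. With each library left out in turn, fat-2 with fat-5 passed in 7 of 8 cases, fat-2 with fat-6 in 6, and fat-2 with fat-4 and fat-5 with fat-6 in 2 each. Without cpr-6 RNAi replicate 4 these 4 coefficients were 0.85, 0.84, 0.72 and 0.73, and 0 of 21 pairs passed after adjustment, 4 having an unadjusted exact permutation p under 0.05. Leaving out any other library, which also leaves 7, gave 2 or 3 passing pairs. fat-7 was not like its paralog fat-6 in this respect (r = 0.40, exact permutation p = 0.341, adjusted 0.377; rho = 0.43, exact permutation p = 0.299, adjusted 0.483). The neighbours fat-3 and fat-4 had r = 0.64 (exact permutation p = 0.0923, adjusted 0.149; rho = 0.60, exact permutation p = 0.132, adjusted 0.347) and fat-1 and fat-2 had r = 0.74 (exact permutation p = 0.0411, adjusted 0.108; rho = 0.71, exact permutation p = 0.0576, adjusted 0.242).

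**Figure D4:**
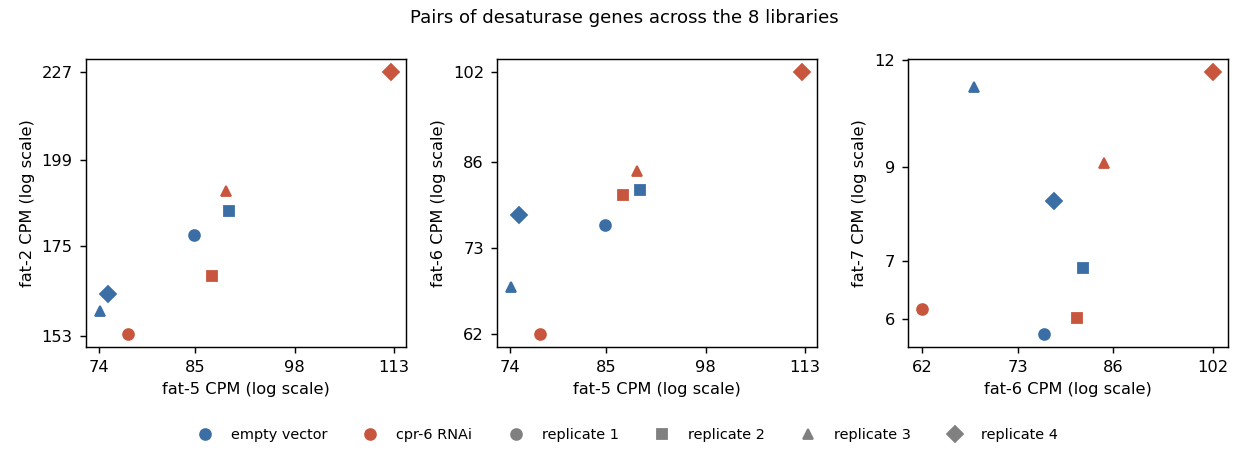
CPM of pairs of desaturase genes over the 8 libraries on log axes (blue, empty vector; red, cpr-6 RNAi; shapes give the replicate number). fat-5 with fat-2 and fat-5 with fat-6 line up, with cpr-6 RNAi replicate 4 at the upper right, whereas fat-6 with fat-7 does not, where empty vector replicate 3 combines a low fat-6 level (67.8 CPM) with a high fat-7 level (11.1 CPM).

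Outside the family, the genes whose levels followed each fat gene most closely over the 8 libraries are given as a description. They were C14B9.2, a probable protein disulfide isomerase gene, bam-2 and F45G2.8 for fat-1 (r = 0.90, 0.90 and 0.89), and ttr-41, the peroxidase gene skpo-1 and F59A6.12 for fat-2 (0.95, 0.94 and 0.94). For fat-3 they were F56C9.8, the nuclear hormone receptor gene nhr-97 and the proton pump gene vha-3 (0.95, 0.94 and 0.93), and for fat-4 F52E1.14, C28C12.4 and C18B12.6 (0.97 each). For fat-5 they were C05B5.8, ptr-11 and slc-17.4 (0.98, 0.94 and 0.94), for fat-6 R10H10.3, cytb-5.1 and C17G1.5 (0.93, 0.93 and 0.92), and for fat-7 saeg-1, Y39E4B.6 and the cathepsin B-like gene cpr-5 (0.97, 0.95 and 0.94). cytb-5.1 encodes a cytochrome b5, the kind of protein that passes electrons to desaturases. Without cpr-6 RNAi replicate 4 the coefficients of these 21 pairs were 0.82 to 0.97. The pairs were picked by their coefficients over all 8 libraries, so values over most of the same libraries are no separate check.

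Of the genes listed for fatty acid synthesis and elongation, 11 of 16 were tested and none passed edgeR's test. The list is not limited to genes that supply the desaturases, since it also holds a branched-chain elongase gene. All 11 had a log2 fold change above 0, from 0.03 to 0.28 with a median of 0.06, beside 50.2% above 0 and a median of 0.00058 over all genes. They were measured in the same libraries, so the count is not one of independent genes. Of tested markers, 9 of 10 for body wall muscle, 8 of 10 for neurons and 6 of 8 for hypodermis lay above 0. So did 5 of 6 for sperm, 5 of 9 for intestine and 2 of 10 for germline and oocytes. The part of tissue makeup in these directions was not tested. The acetyl-CoA carboxylase gene pod-2, which opens fatty acid synthesis, stood at 53.2 ± 4.51 and 55.4 ± 5.90 CPM in empty vector and cpr-6 RNAi libraries (SD, n = 4). The fatty acid synthase gene fasn-1 stood at 18.6 ± 3.16 and 18.99 ± 2.95 CPM. The elongase gene elo-1, which acts between the Δ6 and Δ5 steps, stood at 523 ± 15.9 and 534 ± 23.7 CPM. The elongase gene elo-2 had a log2 fold change of 0.10, the branched-chain elongase gene elo-6 one of 0.23, let-767 one of 0.10 and art-1, a reductase gene of the elongation cycle, one of 0.11. acs-1, an acyl-CoA synthetase gene, had the smallest p of the list, with a log2 difference of 0.28 (SE 0.109; unadjusted p = 0.0221, edgeR adjusted p = 0.997).

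The electron carriers of the desaturases did not pass the test, with log2 fold changes of 0.16 for cytb-5.1, -0.02 for cytb-5.2 and 0.04 for hpo-19, a cytochrome b5 reductase gene. Of the 18 genes listed as regulators of the desaturase genes, all tested, 0 passed, with 6 above 0, 12 below 0 and a median of -0.01. The nuclear hormone receptor gene nhr-80, known to act on Δ9 desaturase genes, stood at 3.54 ± 0.549 and 4.61 ± 1.01 CPM, a log2 fold change of 0.38. iglr-2, which works with the membrane fluidity sensor PAQR-2, had one of -0.12 and the elongation factor gene tcer-1 one of -0.24. pmt-2, which makes phosphatidylcholine precursors, stood at 118.6 ± 4.70 and 153 ± 34.5 CPM, a log2 difference of 0.36 (SE 0.129; unadjusted p = 0.0134, edgeR adjusted p = 0.997).

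Genes that use unsaturated fatty acids gave no call either, with 14 of 15 listed tested, 11 above 0, 3 below 0 and a median of 0.08. The epoxide hydrolase gene ceeh-1, the diacylglycerol acyltransferase gene dgat-2, the fatty acid amide hydrolase gene faah-1 and nape-2 had log2 fold changes of 0.37, 0.38, 0.13 and -0.25. Over these 4 lists, 2 of 46 tested genes had an unadjusted p under 0.05, acs-1 and pmt-2, against 3.85% of all genes, and the groups overlapped for all 46.

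**Figure D5:**
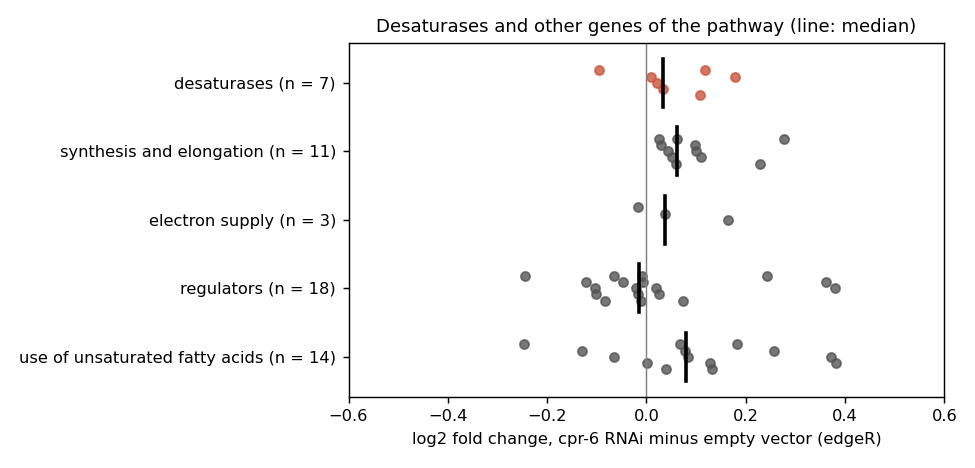
edgeR log2 fold change, cpr-6 RNAi minus empty vector, of the 7 desaturase genes (red) and of the other tested genes of the pathway by list (grey); each point is a gene, a black line is the median of its list, and points are set apart vertically for legibility only. All points lie between -0.25 and 0.38, with the 11 synthesis and elongation genes right of 0.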

How the data were processed

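The authors deposited raw counts per gene for each library beside their own normalized counts, log2 fold changes and p-values, and the latter are given for 13217 of 46904 genes. The submitters' processing notes name the build WBcel235 and the tools DESeq2 1.30.1, HTSeq 0.12.4, TopHat2 2.1.1 and cutadapt 2.10. Their settings, and whether strand or molecular identifiers were used, are not stated in these sources. Without collapsing of identifiers, amplified copies would enter the counts. Here, filterByExpr (minimum count 10) left 10932 genes. They were scaled by TMM and fitted with treatment alone by the robust quasi-likelihood method of edgeR 4.0.16 under R 4.3.3. Tests were two-sided, adjusted by Benjamini-Hochberg over these genes at a threshold of 0.05, and tested on simulated data. Standard errors are the log2 coefficient over the root of F. limma 3.58.1 voom and DESeq2 1.42.0 were alternatives. Levels are TMM-scaled CPM, and correlations use log2 CPM with a prior count of 2. Within groups, chi-square per degree of freedom between libraries was 5.88 to 29.0, and all 8 libraries were kept.

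The members and lists were chosen with earlier results of these data known. Named are the fat genes, cpr-6, pod-2, fasn-1, elo-1, elo-2, up to 4 genes of smallest p per pathway list, and the 3 genes most like each fat gene by Pearson r among tested genes with a mean of 10 CPM or more. Gene positions are those of the deposited table. Transcript lengths and overlaps come from Ensembl release 115 of the same build. T05H4.5 was not matched by name. Motif descriptions of promoters and proteins were planned, but sequences were not used here.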

Additional observations from a re-analysis of the deposited data

Results flagged for a closer look

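Of 78 groups of 4 values checked, 1 held a library far from the other 3, where chance gives about 1 in 20. The ratio of fat-6 to fat-5 was 1.04 in empty vector replicate 4, while the other 3 empty vector libraries held 0.901 to 0.915.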

How the results depend on the processing

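No fat gene passed the test of cpr-6 RNAi against empty vector under any of the alternatives tried (126 values, smallest adjusted p 0.331, for fat-4 in replicates 1 and 2 alone), and 101 kept their direction. The count of genes called over the whole table was 1, 2 with the replicate block, 5 in DESeq2, 28 with no low-count filter and 99 in replicates 1 and 2 alone, and 1 to 3 with a library left out. Same-numbered libraries did not all deviate together (correlations of -0.04, 0.12, 0.02 and 0.23), so the numbers were not taken as pairs. Differently numbered libraries of the 2 groups gave -0.17 to 0.18, so the value of 0.23 for replicate 4 was the highest of all combinations. With the block fat-4 stood at -0.0029. In replicates 1 and 2 alone the log2 fold changes were -0.11 (fat-1), -0.18 (fat-2), -0.21 (fat-4), -0.0874 (fat-5), -0.15 (fat-6), -0.0582 (fat-7), -0.0399 (cytb-5.1), -0.23 (fasn-1) and -0.00064 (nhr-80), and in replicates 3 and 4 alone -0.0548 (art-1), 0.10 (cytb-5.2) and -0.0500 (elo-2). fat-4, at 0.0089 with all libraries, was -0.00044 with RLE scaling, -0.0040 with library totals, -0.014 with no low-count filter, -0.0047 in voom and -0.00046 in DESeq2, fat-7 was -0.0017 with no low-count filter and -0.014 in voom, and cytb-5.2 was 0.0040 with a mean count of 50 or more. With a library left out the ranges were -0.0165 to 0.11 (fat-1), -0.0079 to 0.18 (fat-2), -0.22 to 0.0019 (fat-3), -0.10 to 0.0707 (fat-4), 0.0610 to 0.24 (fat-5), -0.0033 to 0.23 (fat-6), -0.18 to 0.23 (fat-7), -0.0967 to 0.0477 (cytb-5.2), -0.0865 to 0.15 (fasn-1) and -0.0173 to 0.12 (pod-2). The difference between the pairs of replicates called 0 to 462 genes, the most without cpr-6 RNAi replicate 3, and 55 without cpr-6 RNAi replicate 4, with 1 to 4 fat genes at unadjusted p under 0.05. After adjustment 3 fat genes (fat-2, fat-4 and fat-5) passed without cpr-6 RNAi replicate 3 and none in the other leave-outs. Pairs of fat genes past the correlation test numbered 4, 5 with levels centred on group means, 4 with a prior count of 0.5, 1 by Spearman's rho, 2 or 3 without any 1 of the other 7 libraries and 0 without cpr-6 RNAi replicate 4, where fat-2 with fat-7 had r = -0.0383, fat-3 with fat-5 -0.15, fat-5 with fat-7 -0.41 and fat-6 with fat-7 -0.0274. The leave-outs of the replicate-pair difference and of the correlations (save cpr-6 RNAi replicate 4) and Spearman's rho were added after seeing the data. The cause of these changes was not tested. Depth limits fat-7 most, at 54 to 130 counts per library.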
